A study of Mus musculus with 14 samples.

Results

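The spread of gene expression between clones of the same group was described for 9313 autosomal genes, out of 30503 genes with counts, in 14 cultured clones of mouse skeletal cells. These genes were selected on their mean level alone, which had to reach a log2 CPM (CPM, counts scaled to a common library size) of 3, or 8 CPM, over the 14 clones, and genes on X and Y were left out. The most variable genes among them were then chosen by the standard deviation (SD) of log2 CPM between clones within a group, so those SDs are given as a description, with no test. Each clone was grown from a single tdTomato+ cell of the femoral marrow. All mice carried Fgfr3-creER, a tamoxifen-inducible Cre recombinase in Fgfr3-expressing cells, and 1 R26R-tdTomato reporter allele, and received tamoxifen at postnatal day 21. The 5 Fgfr3-WT clones came from mice at day 23 (P23) with no floxed Trp53 allele. The cKO clones came from Fgfr3-creER; Trp53 fl/fl mice, with 5 clones isolated at day 28 (P28) and 4 at 4 months of age (P4M). RNA was taken at passage 8 from the Fgfr3-WT and P28 clones and at passage 6 to 8 from the P4M clones. Each clone is 1 line and 1 library, and nothing says which clones came from the same mouse, so p values measure the spread between these clones only.

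Clones grown from single stromal cells of one marrow are known to differ from each other. Some keep the matrix genes of cartilage, others those of bone or of the reticular, fat-supporting stroma, and a state can persist through passages. Skeletal lineages are told apart by transcription factors such as Sp7 for osteoblasts and Sox9 for chondrocytes, and by the collagens and proteoglycans they secrete, while genes for ribosomes, proteasomes and splicing are used by every cell.

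Trp53, the gene deleted in the cKO, lay at 48.3 to 65.8 CPM in the Fgfr3-WT clones and at 1.79 to 2.88 CPM in the 9 cKO clones, with no overlap, and its mean over the 14 clones was too low for it to be among the 9313 genes. Markers of the skeletal lineage were read in every clone for Prrx1, Pdgfra and Pdgfrb, with Pdgfrb between 229 and 647 CPM. Thy1 reached at most 4.51 CPM in Fgfr3-WT, 34 CPM in P28 and 0.0206 CPM in P4M. Col1a2 ran from 0.0315 to 4275 CPM in Fgfr3-WT, with a median of 0.778 CPM, and lay at 8122 CPM or more in cKO. Of the hematopoietic markers, Ptprc had at most 6 reads and Tyrobp at most 2, while Lyz2 was at 12.2 to 88.5 CPM and Cd68 at 3.43 to 53.1 CPM in Fgfr3-WT, and at most 19.8 and 2.1 CPM in P28 and 7.61 and 5.85 CPM in P4M. Of the endothelial markers Cdh5 had no read and Kdr up to 13.1 CPM, and of the epithelial ones Epcam had at most 3 reads and Cdh1 up to 6.25 CPM. The part of such cells in the spreads was not tested. Libraries held 25688946 to 38958693 counts in Fgfr3-WT, 37606033 to 48648618 in P28 and 43757832 to 52857424 in P4M. The library names of all Fgfr3-WT clones begin with another number than those of all cKO clones. The labels do not say what this number stands for, and it cannot be told apart from genotype in any comparison of Fgfr3-WT with cKO. The paper reports that wild-type clones needed longer in culture than the younger cKO clones to reach the same passage, and that a smaller share did. Time in culture and survival of clones thus differed between Fgfr3-WT and P28 at equal passage. Age at isolation also differed between Fgfr3-WT and both cKO groups. The part of these differences in the spreads was not tested. Fgfr3-WT clone 1 stood apart from its group and is given with and without below.

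The Fgfr3-WT clones differed more from each other than the cKO clones did. The median SD over the 9313 genes was 0.39 in Fgfr3-WT (quartiles 0.27 and 0.56), 0.23 in P28 (0.15 and 0.36) and 0.20 in P4M (0.13 and 0.34), all on the log2 scale. An SD of at least 1.5 was reached by 358 genes in Fgfr3-WT (3.84% of the genes), 93 in P28 (0.999%) and 58 in P4M (0.623%). The Fgfr3-WT group had the highest of the 3 SDs for 6417 genes (68.9%). Just inside the limit of 1.5 were Sord in Fgfr3-WT (1.5) and Ivd in P28 (1.51), and just outside it Dlc1 (1.497) in Fgfr3-WT, Mn1 (1.499) in P28 and Lamtor4 (1.498) in P4M. For a gene at 8 CPM in every clone, counting error was small beside these values. Such a gene had about 205 reads in the library with the smallest scaled total, which gives an SD of 0.10 from counting alone. This does not cover genes that lay far lower in some clones of a group. In Fgfr3-WT clones 1 to 4, Col1a2 had 1, 22, 12 and 28 reads and Sp7 had 0, 5, 1 and 2. Such low values rest on few reads and on the prior count of 2. Thinning every library to the size of the smallest gave medians of 0.39, 0.23 and 0.21. Of the 9313 genes, 1591 had a mean log2 CPM from 3 to 4, and among these 9.11%, 3.02% and 1.26% reached the limit in the respective groups, against 2.03%, 0.41% and 0.24% of the 2467 genes with a mean from 6 to 8.

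Some of these genes were low in one group and passed only through another. With a mean of at least 3 required in each group separately, 175, 36 and 22 genes reached an SD of 1.5 in Fgfr3-WT, P28 and P4M, and the medians were 0.37, 0.22 and 0.19. The order of the groups was the same under both rules.

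The deviation of a whole clone was measured as the root mean square (RMS), over the 9313 genes, of its difference from the group mean, corrected for the number of clones. It was 0.934, 0.559, 0.599, 0.604 and 0.745 in Fgfr3-WT clones 1 to 5, 0.392, 0.426, 0.356, 0.445 and 0.518 in P28 clones 1 to 5, and 0.282, 0.387, 0.495 and 0.356 in P4M clones 1 to 4. Every Fgfr3-WT clone lay above every cKO clone. The mean was 0.688 ± 0.154 (SD, n = 5) in Fgfr3-WT against 0.407 ± 0.0735 (SD, n = 9) in cKO, a difference of 0.282 (two-sided exact permutation test, p = 0.0004995, the smallest that 2002 arrangements can give; adjusted over the 2 comparisons, p = 0.000999). Without Fgfr3-WT clone 1 the difference was 0.194 (exact permutation p = 0.0028). P4M clones did not differ detectably from P28 clones, with means of 0.38 ± 0.0885 (SD, n = 4) and 0.427 ± 0.0608 (SD, n = 5) and a difference of -0.047 (two-sided exact permutation p = 0.349), and this difference turned to 0.0013 without P4M clone 1. Clones of a group share its mean, so these deviations are not fully independent. They also take in genes with a large SD that were low in most Fgfr3-WT clones and entered through cKO, such as Col1a2. No RMS difference is given with a mean of at least 3 in each group, so this comparison of Fgfr3-WT with cKO is not even.

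**Figure D1:**
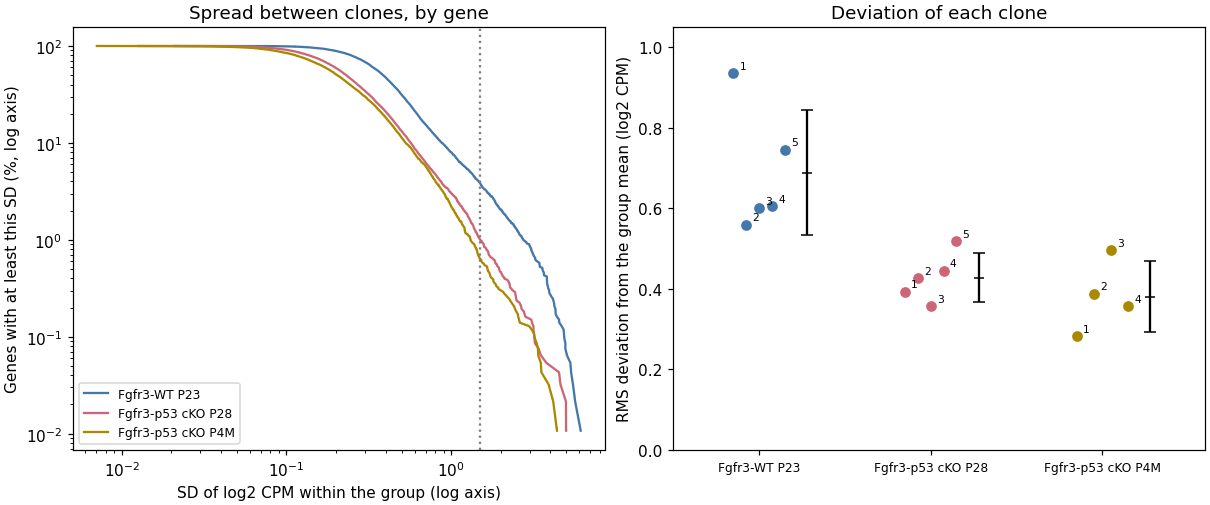
Left, the percentage of the 9313 genes (log axis) whose within-group SD of log2 CPM is at least the value on the x axis (log axis), one line per group, with the limit of 1.5 dotted. Right, the RMS deviation of each numbered clone from its group mean in log2 CPM, with mean and SD in black; the Fgfr3-WT clones lie between 0.559 and 0.934 and the cKO clones between 0.282 and 0.518.

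In Fgfr3-WT, most of the genes with the largest SD encode secreted matrix proteins, their proteases or secreted signals. Col1a2, one chain of type I collagen (chr6:4504814-4541544, mm10), had an SD of 6.12. Its level was 0.0315, 0.814, 0.469 and 0.778 CPM in clones 1 to 4 and 4275 CPM in clone 5, so only clone 5 held it in quantity. Col1a1, which encodes the partner chain, stood at 148, 7.36, 2.3, 1.42 and 1010 CPM in the same clones. In the cKO clones Col1a2 ran from 8122 to 34133 CPM. Fibromodulin (Fmod, chr1:134037254-134048277), a collagen-binding proteoglycan, was at 0.661 CPM in clone 1 and at 5960, 473, 3391 and 4855 CPM in the others. Mmp2, a gelatinase, had no read in clone 1, 1.36 CPM in clone 4 and 21.1, 146 and 438 CPM in clones 5, 3 and 2.

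Clone 1 was the low one for several of these genes. Ccn5, a matricellular protein, was at 0.126 CPM there and between 320 and 541 CPM in the other clones. Wif1, a secreted Wnt inhibitor, was at 0.0944 CPM in clone 1 against 111 to 626 CPM elsewhere. Hspb8, a small heat shock protein, had no read in clone 1 and 27.4 to 160 CPM elsewhere. Without clone 1 the SDs of Ccn5, Wif1 and Hspb8 came to 0.32, 1.03 and 1.11. Other genes were low in a different clone. Thbs2, a thrombospondin of the matrix, gave 6.7, 276, 0, 26.4 and 562 CPM in clones 1 to 5, and Scarf2, a scavenger receptor, 40.7, 328, 0, 0.5 and 274 CPM. Cxcl12, the chemokine of marrow reticular cells, was at 0.504, 29.6, 0.586, 0 and 218 CPM. Susd5 was missing only from clone 5 (52.4, 92.1, 116, 173 and 0 CPM), and so, nearly, was aggrecan (Acan), the main cartilage proteoglycan, at 315, 586, 604, 863 and 0.466 CPM. Clone 5 was thus the highest Fgfr3-WT clone for Col1a2 and the lowest for Acan.

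Among the 358 genes with an SD of at least 1.5 in Fgfr3-WT, clone 1 was the lowest clone for 197 (55%) and clone 5 the highest for 123 (34.4%). Over all 9313 genes clone 1 was the lowest for 28.1% and the highest for 31.3%. Without clone 1, 269 genes reached an SD of 1.5 and the median SD was 0.32, still above that of either cKO group.

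In P28, the matrix gene Tnn had the largest SD (4.99) and is described with the genes variable in all groups. It was followed by Pitx1, Hoxa11 and Bglap2. Pitx1, a hindlimb transcription factor (chr13:55825051-55836192), was at 0.0645 and 0.0485 CPM (3 and 2 reads) in clones 1 and 2, and at 20.4, 85.3 and 84.2 CPM in clones 3 to 5 (SD 4.98). All Fgfr3-WT and P4M clones held it, at 27.3 to 93.4 CPM. Hoxa11, a homeobox gene of the middle limb segment (chr6:52242106-52245810), was at 27.5 CPM in clone 1 and 68.9 CPM in clone 5 but had 3, 3 and 6 reads in clones 2, 3 and 4, with 32.8 to 184 CPM in all Fgfr3-WT and P4M clones. Clone 2 was the only one low for both. Reads of Hoxa11 may be uncertain where the antisense gene Hoxa11os overlaps it, since counting by strand is not stated.

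The other leading genes of P28 mostly divided clones 1, 2 and 3 from clones 4 and 5. Sp7, the osteoblast transcription factor (chr15:102356606-102367182), was at 3.37, 9.91 and 5.47 CPM against 297 and 290 CPM. Alpl, the alkaline phosphatase of mineralization, gave 30.4, 58.7 and 10.5 against 1885 and 916 CPM. Bglap2, an osteocalcin gene whose reads can be confused with those of its near-identical neighbours Bglap and Bglap3, gave 1.29, 0.0727 and 0.576 against 97.3 and 134 CPM. Tmem252, Pgm5 and Cadm1 (a cell adhesion molecule) were likewise higher in clones 4 and 5. In the opposite direction ran Prrx1, the mesenchymal homeobox gene used as a skeletal marker (789, 569 and 674 against 62.4 and 4.53 CPM), and Slc38a1, a glutamine transporter (72.1, 175 and 94.7 against 2.08 CPM in clone 4 and less in clone 5). Abi3bp, an extracellular matrix gene, gave 573, 14, 218, 18.8 and 2.9 CPM, with clones 2 and 4 close together. In P4M, Sp7 (138 to 684 CPM), Alpl (1149 to 1415 CPM) and Bglap2 (266 to 547 CPM) were high in all 4 clones.

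This division ran through the P28 group. Clones 4 and 5 lay both above or both below the 3 other clones for 73 of the 93 genes with an SD of at least 1.5 (36 above and 37 below), and for 5159 of all 9313 genes (55.4%). The RMS difference between clones was 0.348 to 0.469 among clones 1 to 3 and 0.404 between clones 4 and 5, but 0.646 to 0.757 between the 2 sets. The first principal axis of the deviations held 65.9% of their sum of squares in P28, 46.1% in Fgfr3-WT, where clone 1 had the largest weight, and 57.2% in P4M, where clone 3 did. Whether clones 4 and 5 came from another mouse than clones 1 to 3 is not given.

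**Figure D2:**
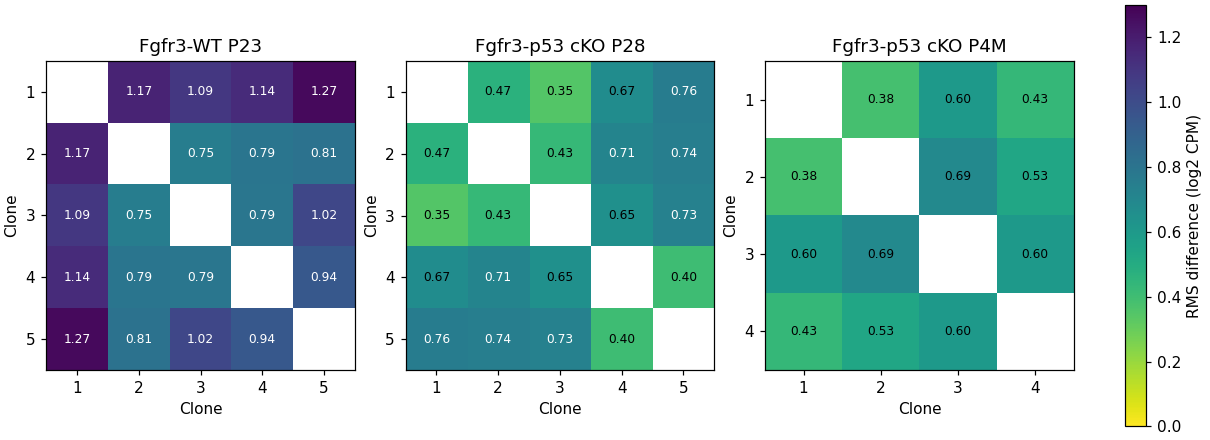
RMS difference in log2 CPM over the 9313 genes between each pair of clones of a group, printed in the cells and shown by colour. Fgfr3-WT pairs lie between 0.748 and 1.27, with the pairs of clone 1 highest (1.09 to 1.27); P28 clones 1 to 3 and clones 4 and 5 are close within their sets.

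In P4M, 2 of the leading genes were absent from a single clone. Aen, an exonuclease induced by p53 (chr7:78895854-78911209), had 1 read in clone 2 (0.0234 CPM) and 37.9, 28.6 and 30.6 CPM in the others, with an SD of 4.39. In P28 it was even, at 18.2 to 34 CPM, and in Fgfr3-WT it lay at 91.8 to 211 CPM. Eps8l2, which encodes an actin-linked adaptor (chr7:141338880-141363020), had 1 read in clone 3 and 22.9, 15.4 and 30.8 CPM in clones 1, 2 and 4. Dkk3, a secreted protein of the Dickkopf family, was at 1 CPM in clone 1 and 112 to 172 CPM in the other 3 clones. Several matrix genes were instead highest in clone 3. Col3a1, the chain of type III collagen, gave 12.2, 10.3, 1800 and 27.1 CPM. Ccn3 gave 5.95, 2.38, 394 and 3.94 CPM, Fbln2, a fibulin, 1.9, 14.3, 344 and 34.2 CPM, and Plin4, a lipid droplet coat protein, 1.07, 0.21, 34.3 and 0.361 CPM. Col11a2, a cartilage collagen, was lowest in clone 3, with 61.8, 592, 7.16 and 43.2 CPM. Of the 58 genes with an SD of at least 1.5 in P4M, clone 3 was the highest for 33 (56.9%) and clone 2 the lowest for 25 (43.1%).

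**Figure D3:**
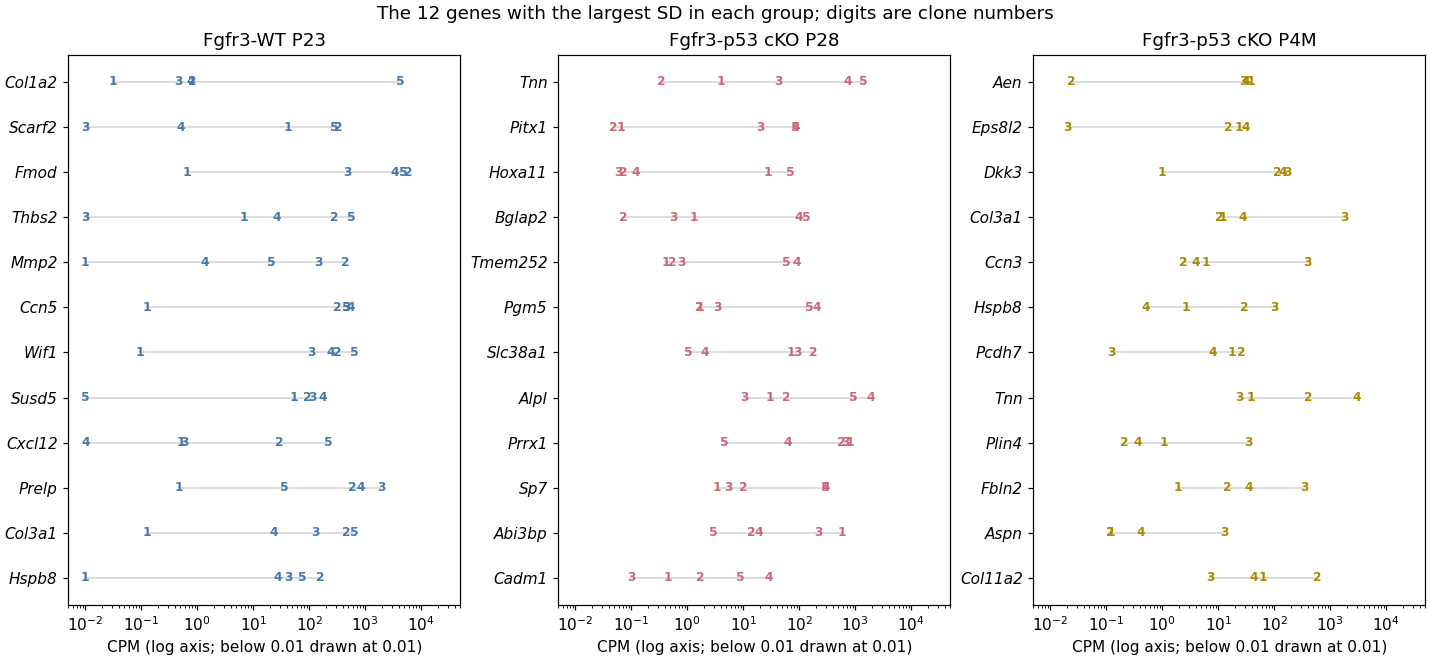
CPM (log axis) of the 12 genes with the largest within-group SD in each group; each digit is a clone by its number, and values below 0.01 CPM are drawn at 0.01. Col1a2 is high in clone 5 alone of Fgfr3-WT, the P28 panel places clones 4 and 5 together for most genes, and Aen and Eps8l2 are each missing from 1 clone of P4M.

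The 250 bases before the RefSeq start are shown for Tnn and Hoxa11, which were near 0 in some clones and abundant in others of the same group. They come from RefSeq on GRCm38.p6, the assembly of mm10, are written 5′ to 3′ on the transcribed strand, and have each CG dinucleotide in capitals. They lie at chr1:160153576-160153825 (minus strand) for Tnn, where the gene as annotated by GENCODE begins a few bases inside the stretch, and at chr6:52245811-52246060 (minus strand) for Hoxa11.
Tnn: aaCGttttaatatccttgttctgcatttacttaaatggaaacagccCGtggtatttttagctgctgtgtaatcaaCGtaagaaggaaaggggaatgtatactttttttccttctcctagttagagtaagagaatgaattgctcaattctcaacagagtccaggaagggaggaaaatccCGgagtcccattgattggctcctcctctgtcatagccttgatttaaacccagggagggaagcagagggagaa
Hoxa11: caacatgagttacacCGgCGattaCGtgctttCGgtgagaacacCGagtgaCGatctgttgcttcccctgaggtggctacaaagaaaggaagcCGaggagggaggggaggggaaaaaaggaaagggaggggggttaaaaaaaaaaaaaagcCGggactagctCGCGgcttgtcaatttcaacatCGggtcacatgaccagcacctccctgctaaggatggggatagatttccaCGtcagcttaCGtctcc
The letters CG, the same on both strands, occurred 4 times in the Tnn stretch and 13 times in that of Hoxa11. At least 1 CG was found in 92.1% of the 32851 promoters of the table at this length, with a median of 6, which lies between the 2 genes. RefSeq promoters were at hand for 7316 of the 9313 genes (78.6%) and for 71.8%, 61.3% and 65.5% of those with an SD of at least 1.5 in Fgfr3-WT, P28 and P4M. This is under 80%, so a comparison of promoter features between variable and other genes is void and no value is given.

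An SD of at least 1.5 in all 3 groups was found for 12 genes, out of 417 that reached it in any group, namely Aspn, Ccn3, Enpp2, F13a1, Gpx3, Grem1, Itgbl1, Plin4, Ptn, Slco2a1, Tnn and Vcam1. Tenascin N (Tnn, chr1:160085029-160153580), a matrix protein of bone, had the highest SD of these in P28 (4.99), with 3.85 in Fgfr3-WT and 3.22 in P4M, where Ptn (4.31) and Ccn3 (3.38) were highest. It gave 8.94, 1.29, 0.117, 0.472 and 149 CPM in Fgfr3-WT, 3.91, 0.339, 42.5, 728 and 1399 CPM in P28, and 37.7, 408, 23.9 and 2923 CPM in P4M. The ranges of the groups overlapped, that of Fgfr3-WT with P4M through Fgfr3-WT clone 5 alone. Grem1, a secreted BMP antagonist, gave 5.85, 1617, 416, 1177 and 19 CPM in Fgfr3-WT, 55.6, 232, 308, 15.5 and 20.2 CPM in P28 and 36.3, 6.7, 158 and 49.7 CPM in P4M. F13a1, a subunit of coagulation factor XIII, was at 1.6 to 277 CPM in Fgfr3-WT, 0.278 to 9.34 CPM in P28 and 3.88 to 126 CPM in P4M. Gpx3, a secreted glutathione peroxidase, ranged over 24.6 to 4122, 1.33 to 69.9 and 0.556 to 45.5 CPM. Vcam1, the adhesion molecule of reticular stroma, ranged over 3.43 to 63.9, 2.9 to 269 and 1.4 to 49.1 CPM, and Aspn, a small proteoglycan, over 0.742 to 27.6, 7.17 to 682 and 0.117 to 12.9 CPM.

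The most variable genes of the groups overlapped. Among the 300 most variable genes of each group, which are 3.22% of the 9313, Fgfr3-WT shared 109 with P28 (36.3% of each list) and 105 with P4M (35%), P28 and P4M shared 100 (33.3%), and 50 were in all 3 lists. The Spearman correlation of the SDs over the 9313 genes was 0.39 between Fgfr3-WT and P28, 0.40 between Fgfr3-WT and P4M and 0.41 between P28 and P4M, as a description across genes, which share libraries and level and are not independent. Of the 93 variable genes of P28, 54 (58.1%) also reached an SD of 1.5 in the Fgfr3-WT clones, where 3.84% of all genes did, and 17 (18.3%) in P4M, where 0.623% did. The 358 variable genes of Fgfr3-WT had a median SD of 0.74 in P28 and 0.70 in P4M, against 0.23 and 0.20 over all genes. Level is shared between the groups too, and its part in this overlap was not tested.

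At the other end, Wiz, a zinc finger protein of chromatin, gave 53.4 to 61.1 CPM in Fgfr3-WT, 76.1 to 89.4 in P28 and 86 to 96.9 in P4M, with SDs of 0.08, 0.09 and 0.07. Atg16l1, an autophagy factor, had an SD of 0.09 in each group. Tor1aip1 of the nuclear membrane lay between 97.2 and 124 CPM in all 14 clones, and Urgcp between 36.9 and 48.1 CPM. Rasa2, a Ras GTPase-activating protein, lay between 24.7 and 33.4 CPM, and Sucla2, a mitochondrial ligase subunit, had SDs of 0.08, 0.08 and 0.11.

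Genes with a lower SD in Fgfr3-WT than in both cKO groups were picked by the difference of their SDs, 6 in all. None of the 6 was called by the test of spread given below (limma adjusted p from 0.11 to 0.31). Ttyh3, Ntn1 and Zfp521 stayed under an SD of 1.5 in both cKO groups. Itih2 was low in P4M, at 0.28 to 2.6 CPM. Mgp, the matrix inhibitor of calcification, lay at 3.92 to 7.07 CPM in the Fgfr3-WT clones, at 134, 74.1, 196, 56.4 and 6.25 CPM in P28 and at 1.86, 20.8, 39.8 and 6.64 CPM in P4M. Ttyh3 was at 18.7 to 30.3 CPM in Fgfr3-WT, 49.8 to 264 CPM in P28 and 5.71 to 30.5 CPM in P4M. Itih2, Creld1, Ntn1 (the guidance cue netrin 1) and Zfp521 had SDs of 0.32 to 0.57 in Fgfr3-WT and of 1.12 to 2.42 in the cKO groups.

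By function, lists of cartilage, matrix, reticular and osteoblast genes had median SDs above that of all genes in each group. Cartilage genes had a median SD of 2.02 in Fgfr3-WT, 1.26 in P28 and 0.96 in P4M, with 7, 5 and 4 of the 13 genes at 1.5 or above. A single clone carried much of this, since without Fgfr3-WT clone 5 the cartilage median was 0.72, with 3 genes, and without P28 clone 5 it was 0.61, with 4. The high ones were Susd5, Acan, Comp, Pth1r, Col11a2, Col2a1 and Hapln1 in Fgfr3-WT, Pth1r, Comp, Susd5, Hapln1 and Fgfr3 itself, whose regulatory sequence drives the Cre, in P28, and Col11a2, Acan, Col2a1 and Col11a1 in P4M. Fibrillar collagens and other matrix genes came to 1.82, 0.89 and 0.75, with 23, 6 and 10 of 38. Without Fgfr3-WT clone 1 the matrix list came to 1.19 with 13 genes, and without P4M clone 3 to 0.55 with 5. Reticular and adipocyte genes came to 1.82, 0.85 and 0.68, with 9, 2 and 2 of 12. Without P28 clone 2 the reticular median was 0.56, with 1 gene, and without P4M clone 3 it was 0.38, with none. Osteoblast and bone matrix genes came to 1.45, 1.10 and 0.75, with 9, 6 and 2 of 19; Bglap2, Alpl, Sp7, Mmp13, Postn and Smpd3 were the 6 in P28. Without P4M clone 3 no osteoblast gene reached 1.5 in P4M, and a single gene did without P4M clone 2. Complement genes, only 6, had the second highest of these medians in P4M (0.91) and 0.82 and 0.62 in Fgfr3-WT and P28. These counts stand beside 3.84%, 0.999% and 0.623% of all genes. Genes with a mean of at least 3 in each group, which were not low in any, gave medians of 1.26, 0.56 and 1.06 over 8 cartilage genes, 1.47, 0.83 and 0.69 over 28 matrix genes, 1.62, 0.70 and 0.44 over 8 reticular genes and 1.45, 0.59 and 0.71 over 11 osteoblast genes.

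Contractile genes such as Acta2, smooth muscle actin, had a median SD of 1.61 in Fgfr3-WT, with 7 of 14 at 1.5 or above. In P28 and P4M the medians were 0.45 and 0.51, with none at 1.5. Over all 9313 genes, 3.84% reached 1.5 in Fgfr3-WT, 0.999% in P28 and 0.623% in P4M. Several of the 7 were low in Fgfr3-WT and entered through cKO, such as Myl9, with no read in 4 of the 5 Fgfr3-WT clones and 36.5 to 403 CPM in cKO, Tagln (0.22 to 17.8 CPM in Fgfr3-WT) and Cnn1 (0.063 to 4.78 CPM). Over the 11 genes with a mean of at least 3 in each group the medians were 0.78, 0.45 and 0.50, with 4 at the limit in Fgfr3-WT. Acta2 gave 0.252, 96.2, 33.5, 88.8 and 13.5 CPM in Fgfr3-WT, 1067 to 2707 CPM in P28 and 309 to 481 CPM in P4M. Without Fgfr3-WT clone 1 the contractile median was 0.69, and without clone 5 it was 0.84, with 5 of 14 each. Without P4M clone 3 it was 0.31 in P4M. Cell cycle and mitosis genes had medians of 1.10, 0.58 and 0.64, with 10 of 42 at 1.5 or above in Fgfr3-WT and none in cKO. Without Fgfr3-WT clone 4 the Fgfr3-WT median was 0.58, with 1 of 42, close to that of P28, and without P28 clone 1 the P28 median was 0.33. Without Fgfr3-WT clone 5 there were 16. Over the 20 genes with a mean of at least 3 in each group the medians were 0.50, 0.47 and 0.32, and none reached 1.5. Mki67, a marker of dividing cells, gave 0.85, 2.33, 0.82, 32.6 and 5.63 CPM in Fgfr3-WT, 49 to 142 CPM in P28 and 56.6 to 175 CPM in P4M, so clone 4 was the highest Fgfr3-WT clone and still below all cKO clones. The mean deviation over the 42 genes was 1.49 log2 units in Fgfr3-WT clone 4 and -0.70 to 0.23 in the other Fgfr3-WT clones, and in P28 it ran from -0.85 in clone 1 to 0.61 in clone 5. In bulk RNA, fewer dividing cells and less RNA of these genes per cell cannot be told apart, and the part of division in the other spreads was not tested.

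Of Hox and limb patterning genes, none of 19 reached 1.5 in Fgfr3-WT or P4M and 3 did in P28, namely Pitx1, Hoxa11 and Prrx1, while their medians were 0.71, 0.64 and 0.28. Among Wnt pathway genes 7 of 19 reached it in Fgfr3-WT, with Wif1 and Wnt10b leading, and 4 did without clone 1. Wnt10b, an osteogenic Wnt ligand, gave 0, 3.81, 0, 0.0278 and 16.2 CPM there and 15.2 to 116 CPM in cKO. Of 14 imprinted genes 2 reached it in Fgfr3-WT, Grb10 (268, 0.481, 338, 199 and 20.6 CPM) and Mest (11.9, 79.2, 715, 9.31 and 0.466 CPM). Grb10, a growth-limiting adaptor, was even in cKO, at 356 to 651 CPM. Of 13 MHC class I presentation genes 2 reached it in Fgfr3-WT, H2-K1, whose reads can be split with related H2 genes, and Nlrc5, and none did without clone 1. Of 23 p53 targets 1 reached it in Fgfr3-WT (Btg2), none in P28 and 1 in P4M (Aen), with medians of 0.62, 0.45 and 0.42. The 1 in Fgfr3-WT was 4.35% of the list, near the 3.84% of all 9313 genes. Over all genes 0.999% reached 1.5 in P28 and 0.623% in P4M. The Fgfr3-WT shares were 36.8% of the Wnt, 14.3% of the imprinted and 15.4% of the MHC class I genes. In P28 the Hox share was 15.8%. Without P4M clone 3 the P4M median of the p53 targets was 0.23. Leaving out a Fgfr3-WT clone gave 1 to 3 p53 targets at 1.5 or above in that group. Without P4M clone 3 the P4M medians of the Hox and Wnt lists were 0.16 and 0.23.

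Ribosomal, proteasome, spliceosome and respiratory genes had medians near or under those of all genes. The 77 cytosolic ribosomal protein genes had medians of 0.38, 0.23 and 0.14, the 31 proteasome genes 0.37, 0.20 and 0.10, the 28 spliceosome genes 0.29, 0.19 and 0.13 and the 45 nuclear genes of oxidative phosphorylation 0.36, 0.16 and 0.15, and none of their genes reached 1.5 in any group. The proteasome median in Fgfr3-WT fell to 0.17 without clone 1, and the ribosomal median to 0.15 in P28 without clone 2 and to 0.085 in P4M without clone 3. Psmb2, a proteasome subunit, gave 11.3, 25.2, 41.9, 35 and 41.3 CPM in Fgfr3-WT. Other lists lay between, such as the TGF-beta and BMP pathway (0.75, 0.50 and 0.51 over 31 genes), the IGF pathway (1.01, 0.60 and 0.39 over 12), axon guidance (0.69, 0.52 and 0.42 over 29) and glycolysis and hypoxia (0.49, 0.35 and 0.58 over 25). Without P4M clone 3 the P4M medians of the TGF-beta and axon guidance lists were 0.29 and 0.21. Summed CPM of the endothelial list ran from 5.86 to 133 in Fgfr3-WT, 7.07 to 55.3 in P28 and 13.1 to 266 in P4M with Cdh5 at 0 throughout, and of the hematopoietic list from 16.6 to 144, 5.57 to 23.6 and 6.89 to 12.3.

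**Figure D4:**
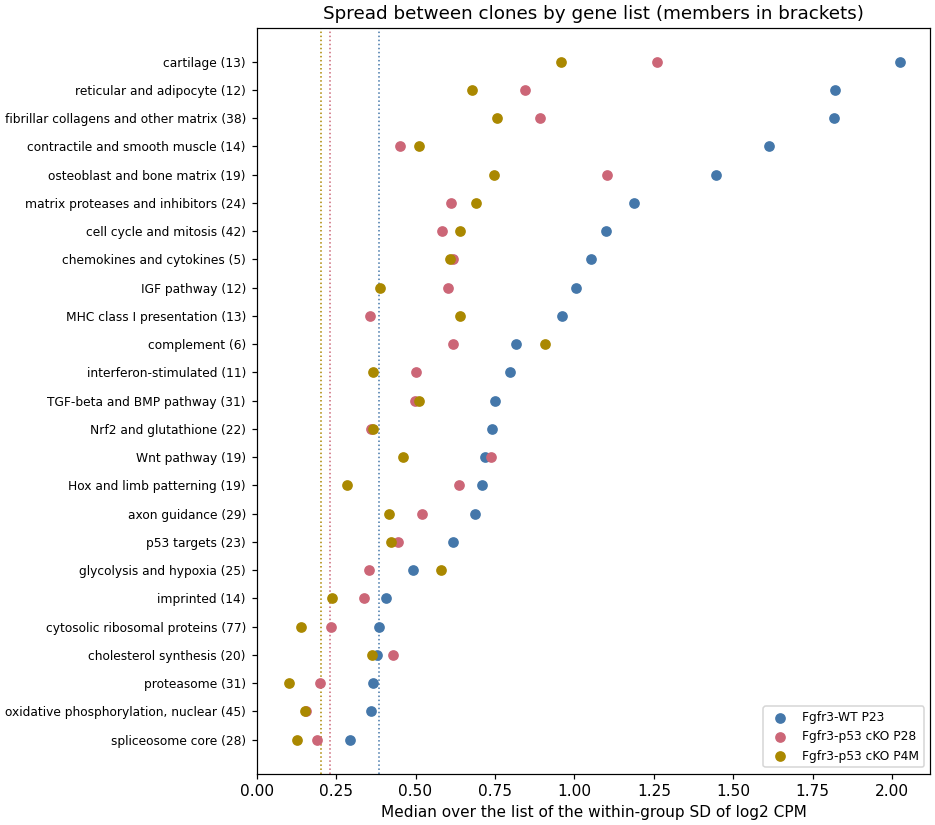
Median within-group SD of log2 CPM over each gene list (members in brackets; lists of 5 or more) in the 3 groups, with dotted lines at the median over all 9313 genes (0.39 in Fgfr3-WT, 0.23 in P28, 0.20 in P4M). Cartilage, reticular and matrix genes lie far to the right in Fgfr3-WT and ribosomal, proteasome, respiratory and splicing genes at the left.

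Gene by gene, the spread was tested with limma on the absolute deviation of each clone from its group mean, over all 9313 genes with Benjamini-Hochberg adjustment. At an adjusted p under 0.05, 343 genes (3.68%) were more spread in Fgfr3-WT than in cKO and 9 (0.0966%) more spread in cKO, with 2430 and 119 genes at an unadjusted p under 0.05. Some of the 343 were low in most Fgfr3-WT clones and entered through cKO, such as Wnt10b and Cxcl12 (limma adjusted p = 0.0075 and 0.017). No count of calls in this comparison is given with a mean of at least 3 in each group, so the groups are not compared evenly. The number of calls hung on the form of the test. With deviations taken from the group median no gene was called (813 at an unadjusted p under 0.05), with squared deviations 2, and with the log2 of the absolute deviation 799, of which 770 were more spread in Fgfr3-WT. Leaving out 1 clone gave 104 (without P4M clone 1) to 933 (without Fgfr3-WT clone 2), with 221 without Fgfr3-WT clone 1, and only leaving out Fgfr3-WT clone 5 (467) moved the count by less than 1.5 times. Simulated counts of this design had an SD of 0.5 in every group for unchanged genes, and another SD in 1 side for 200 of the 9313 genes. There the test called 16% of genes with a 3-fold and 14% of genes with a 6-fold higher SD in Fgfr3-WT. It called 6% and 0% of genes with the same folds in cKO, and 1 of the 9113 unchanged genes. In the data the groups differ in SD over most genes, so these shares do not carry over to the counts of calls above.

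The genes with the lowest p, chosen by this test, were ones on which the Fgfr3-WT clones divided 2 against 3. The form of the test favours this division, because the deviations from the group mean are then similar in size in every clone. It is therefore not a trait of the most variable genes. Col1a2, with the largest SD in Fgfr3-WT (6.12), was not called (limma adjusted p = 0.082). Mlh3, a mismatch repair gene (chr12:85234520-85270599), gave 1.73 and 1.55 CPM in clones 1 and 5 and 29.9, 22 and 27.2 CPM in clones 2, 3 and 4, while the cKO clones lay at 6.61 to 13.6 CPM (limma adjusted p = 0.000576). Klf4, a zinc finger transcription factor, gave 153, 14.8, 154, 88.1 and 13 CPM in Fgfr3-WT, 51.6 to 62.4 CPM in P28 and 271 to 410 CPM in P4M (limma adjusted p = 0.00096). B4galt6, Tbc1d9, Trib2 and Bok came next, with SDs of 1.86 to 2.22 in Fgfr3-WT and of 0.15 to 0.53 in cKO. Between P4M and P28, 8 genes were called (0.0859%), 7 of them more spread in P28 (817 genes at an unadjusted p under 0.05), and 1 in a fit with only those groups. Leaving out 1 clone gave 2 (without P28 clone 5) to 75 (without P28 clone 1). Abca3, a lipid transporter, was one of the 7, with 36.7, 36.5, 47, 2.37 and 2.13 CPM in P28 and 3.61 to 8.21 CPM in P4M, and Enah, an actin regulator, gave 153, 143, 117, 559 and 412 CPM against 131 to 150 CPM. Pitx1, Hoxa11, Dclk1 and Ppm1l were also among them, and all 6 had clones 4 and 5 on the same side except Hoxa11.

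A stricter form of variation was to be off in a clone and on in another of the same group, taken as at most 3 reads in one and at least 8 CPM in another. It was found for 45 genes in Fgfr3-WT (0.483%), 4 in P28 (0.043%) and 2 in P4M (0.0215%). Genes were selected on their mean over all clones, so some of the 45 were low in most Fgfr3-WT clones and entered through cKO. Col1a2 had a median of 0.778 CPM in Fgfr3-WT and at least 8122 CPM in cKO. Wnt10b reached at most 16.2 CPM in Fgfr3-WT and lay at 15.2 to 116 CPM in cKO. Others, such as Wif1 and Susd5, were abundant in most Fgfr3-WT clones. No count is given with a mean of at least 3 in each group, so the groups are not compared evenly. In Fgfr3-WT 28 of the 45 were off in clone 1, 9 in clone 3, 9 in clone 4, 6 in clone 5 and 2 in clone 2, and 40 were off in 1 clone alone. Without clone 1 there were 21. The 45 included Col1a2, Alpl, Sp7, Cxcl12, Mmp2, Thbs2, Wif1, Wnt10b, Dkk3, Tnn and Ptn (pleiotrophin, at 20.1, 0.222, 0, 9.64 and 53 CPM). In P28 they were Bglap2, Hoxa11, Pitx1 and the locus Gm5537, and in P4M Aen and Eps8l2. A count of 0 allows up to 3 reads, which is 0.0571 to 0.117 CPM in these libraries, and such limits cover counting error only.

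Some neighbouring genes were both variable. Of 9294 pairs of genes next to each other among the 9313, both had an SD of at least 1.5 in 26 in Fgfr3-WT (0.28%). In P28 they numbered 6 (0.065%) and in P4M 2 (0.022%). Over single genes the shares were 3.84%, 0.999% and 0.623%. How many pairs to expect without a link between neighbours was not estimated. Of the 26 pairs, 7 had the same highest clone and 17 the same lowest. Clone 1 was the lowest for 55% of the variable Fgfr3-WT genes. Tmem252 and Pgm5 on chr19 (chr19:24674008-24682233 and chr19:24683016-24861855) were such a pair in both Fgfr3-WT and P28. Tmem252 gave 0.441, 35.6, 8.16, 81.7 and 1.55 CPM in Fgfr3-WT and 0.408, 0.533, 0.775, 88.4 and 57.7 CPM in P28. Pgm5, a relative of phosphoglucomutase found at cell adhesions, gave 1.13, 106, 24.2, 216 and 3.42 CPM and 1.68, 1.62, 3.44, 202 and 152 CPM. The order of the clones was the same for both genes in Fgfr3-WT. Prelp and Fmod, neighbouring proteoglycan genes on chr1, were both lowest in Fgfr3-WT clone 1, and Ccn3 and Enpp2, on chr15, were a variable pair in all 3 groups.

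Whole chromosomes shifted between clones as well. The median deviation of a chromosome's genes from the group mean passed 0.25 log2 units in either direction in 15 of 95 chromosome and clone combinations in Fgfr3-WT, 6 of 95 in P28 and 3 of 76 in P4M. In P28, chromosome 7 ran from -0.25 in clone 5 to 0.27 in clone 2, and chromosome 16 (302 genes) lay at 0.01, -0.50, -0.20, 0.31 and 0.40 in clones 1 to 5. In P4M, chromosome 19 (365 genes) lay at 0.09, 0.03, -0.46 and 0.34 in clones 1 to 4, and chromosome 15 at 0.27 in clone 3. The other P4M chromosomes differed by at most 0.19 between clones. In Fgfr3-WT the shifts were spread over more chromosomes, with a median range between clones of 0.40 against 0.18 in P28 and 0.11 in P4M, and reached 0.41 for chromosome 13 in clone 3. Removing each clone's chromosome medians lowered the median SDs to 0.33, 0.20 and 0.19 and left 352, 91 and 58 genes at an SD of at least 1.5. DNA copy number was not measured here, and its part in these shifts was not tested.

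**Figure D5:**
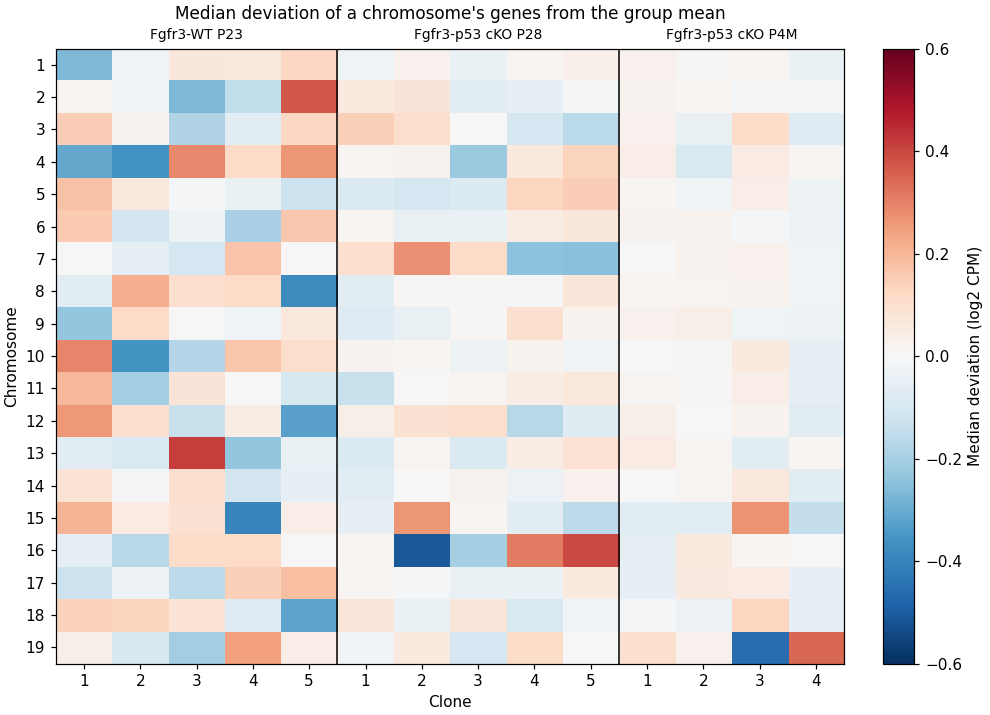
Median deviation from the group mean, in log2 CPM, of the genes of each autosome (rows) in each clone (columns, grouped by vertical lines). Fgfr3-WT clones show shifts on many chromosomes, P28 clones mainly on chromosome 16 (-0.50 to 0.40) and P4M clones on chromosome 19 (-0.46 to 0.34).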

How the data were processed

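RNA of 14 mouse clones (5 Fgfr3-WT, 5 Fgfr3-p53 cKO P28, 4 Fgfr3-p53 cKO P4M) was made into cDNA with a SMART-Seq v4 kit and sequenced on a NovaSeq. The authors aligned reads to mm10 with TopHat and Bowtie2 and counted them per gene with HTSeq; versions are not given in the sources used here. The raw count table they deposited was used. Its values equal the deposited expected counts for all 30503 genes, and that table supplied gene names. The rlog (log2) and TPM values, also made by the authors, served as alternatives. Depth-normalized counts and FPKM were not used.

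Counts were scaled by TMM (edgeR 4.0.16, R 4.3.3) to log2 CPM with a prior count of 2; CPM printed per clone are counts over the TMM-scaled library total, with no prior count. The 323 X and Y, 15 mitochondrial and 7 unplaced genes at the mean were left out. The spread was tested with limma 3.58.1 (robust) on absolute deviations, at a false discovery rate of 0.05, and per-clone RMS values by exact permutation. DESeq2 1.42.0 size factors were an alternative. Python 3.11.15, numpy 2.4.6, pandas 2.3.3 and matplotlib 3.10.9 made the summaries and plots. Coordinates are those of GENCODE M21 on mm10. Named genes were the 12 with the largest SD per group, the 8 most variable in all groups, 6 each with the SD highest in Fgfr3-WT or in cKO, the 6 most even, up to 3 per list and up to 6 per spread contrast; unnamed loci were passed over, and other genes named in lists were chosen after their values were seen. Members and lists were chosen with earlier results of these data known. On simulated counts for 9313 genes of the Fgfr3-WT against cKO comparison, with 1 SD of 0.5 for all unchanged genes, 8.14% of these had an unadjusted p under 0.05. Floors of 3 counts cover counting error only. A value that belongs to a withheld item is not reported here.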

Additional observations from a re-analysis of the deposited data

Results flagged for a closer look

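Of 39 values of the named genes in a group, 9 had a clone far from the others by Dixon's ratio, 6 in Fgfr3-WT, 0 in P28 and 3 in P4M; chance flags about 1 in 20 groups, and these genes were selected on their spread. In Fgfr3-WT, Col1a2 stood apart in clone 5 (4275 CPM). Fmod (0.661 CPM), Ccn5 (0.126 CPM), Wif1 (0.0944 CPM) and Hspb8 (0 CPM) stood apart in clone 1, and Susd5 (0 CPM) in clone 5. In P4M, Aen stood apart in clone 2 (0.0234 CPM), Eps8l2 in clone 3 (0.0206 CPM) and Dkk3 in clone 1 (0.9995 CPM).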

How the results depend on the processing

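Of 441 values under the alternatives, 368 stayed on the same side or within the replicate spread, 72 moved and 1 reversed; the causes were not tested. Genes with an SD of at least the limit in Fgfr3-WT, P28 and P4M numbered 790, 263 and 182 with a mean of at least 1, 125, 22 and 19 with a mean of at least 5, and 175, 36 and 22 with a mean of at least 3 in each group. They numbered 746, 282 and 207 at a limit of 1, 192, 43 and 28 at a limit of 2, and 166, 46 and 22 with rlog values, which gave a P28 median of 0.18. With log2(TPM + 1) they were 210 in Fgfr3-WT and 33 in P4M, and with the median absolute deviation 36 in P4M, at a P4M median of 0.15. With no filter on the mean the median SDs were 0.50, 0.33 and 0.31, the counts 1793, 835 and 571, and Fgfr3-WT shared 62 top genes with P28 and 56 with P4M. The 100 most variable genes shared 23, 24 and 22, and a longer list 220, 212 and 207.

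Genes called for spread between Fgfr3-WT and cKO numbered 0 with deviations from the group median, 2 with squared deviations, 799 with log2 deviations and 552 with no filter. Between P4M and P28 they numbered 1, 1, 83 and 51 in the same settings, 20 with a mean of at least 1, 5 with a mean of at least 3 in each group, 13 with rlog, 18 with log2(TPM + 1) and 1 with only the groups compared. Leaving out 1 clone gave 104 to 933 and 2 to 75 calls. It gave median SDs of 0.32 to 0.40 in Fgfr3-WT, 0.21 to 0.24 in P28 and 0.16 to 0.22 in P4M, and 269 to 405, 74 to 114 and 42 to 88 genes at the limit. The ratio of medians was 1.37 to 1.81 over P28 and 1.55 to 2.39 over P4M, and the shared genes 100 to 111, 97 to 109 and 87 to 103. The RMS difference between Fgfr3-WT and cKO was 0.194 to 0.328, and between P4M and P28 -0.11 to 0.0013, which is the reversal, without P4M clone 1. Removing chromosome medians, keeping protein-coding genes only, adding mitochondrial and unplaced genes, and the log2 form of the deviations were chosen after seeing the data. No paired analysis was possible because the labels give the groups no shared replicate numbers.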
